A study of Drosophila melanogaster with 3 samples.

Results

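Raf and the genes around it in epidermal growth factor receptor (EGFR) signalling were examined for peaks of CG16863-eGFP, a protein tagged with green fluorescent protein, in Drosophila melanogaster embryos. The 10 genes were Raf, Ras85D, Egfr, spi, rho, aos, drk, Sos, Dsor1 and rl, of 18164 annotated genes in all, and they were selected on measured values, with the peak positions and peak signals of the same lists known. The values below on these 10 genes are therefore a description, without a test. All samples came from 1 transgenic line that stably expresses CG16863 with a C-terminal GFP, as whole embryos of both sexes aged 0 to 16 h. Chromatin of 200 to 800 bp was precipitated with an antibody against GFP in 3 biological replicates of this single group, so no conditions were compared.

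In EGFR signalling, the ligand Spitz (spi) is cut by the membrane protease Rhomboid (rho) and released to bind the receptor (Egfr), while the secreted protein Argos (aos) binds Spitz and inhibits it. The adaptor Drk and the exchange factor Sos carry the signal from the receptor to Ras85D, which activates the kinase Raf. Raf phosphorylates the kinase Dsor1, and Dsor1 phosphorylates Rolled (rl), the MAP kinase that acts on transcription factors in the nucleus. In the embryo the cascade is known for patterning the ventral ectoderm, and Raf also acts below the receptor Torso at both ends of the embryo.

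A summit is the base of a peak with the highest signal, and a reproducible summit is one in the deposited set of peaks that passed the irreproducible discovery rate (IDR) step across replicates. This set held 3953 peaks, the list of the pooled replicates held 23571 relaxed peaks, and the lists of replicates 1, 2 and 3 held 24378, 30000 and 29769. The number of reads behind these lists is not known here. Relative signal is the authors' signal of a peak divided by the median signal at the reproducible peaks in that replicate, so a value of 1 is the level of a typical reproducible peak. A replicate counted as holding a summit when its own relaxed list had a summit within 100 bp. No separate control library was analysed here, and whether the deposited signal was already set against a control is not stated, so binding of the tagged protein and other sources of signal cannot be told apart. Embryos were taken whole, so the cells and stages in which a site was bound are not known.

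Of the 10 genes, 7 had at least 1 reproducible summit between 2 kb upstream of the gene and its end: Raf, Ras85D, Egfr, spi, rho, aos and drk. Sos, Dsor1 and rl had none. Over all annotated genes the share was 22.2%, and over the 13945 protein-coding genes it was 25.3%. The share went up with gene length, and among coding genes it was 19.2% below 5 kb, 39.8% from 5 to 20 kb and 52.6% from 20 kb on. In the same classes the members with a summit were 1 of 2, 4 of 5 and 2 of 3. With a summit within 500 bp of one of its own transcription start sites there were 4 members, Ras85D, spi, rho and aos, against 17.1% of coding genes. Since the members were selected with these peaks known, nothing is read from the differences.

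The windows of the 10 genes held 24 reproducible summits, and Raf held 14 of them (58.3%). Of the 24 summits, 18 lay in introns, 4 upstream of the gene and 2 in a 5′ UTR. A start site of any gene lay within 500 bp of 8 summits, and 16 were farther from every start site. All 3 replicates held 21 of the 24 summits and 2 replicates held the other 3. Of all 3953 reproducible peaks, all 3 replicates held 91.0%. Over the 21 summits the order of signals was alike in the replicates, with Spearman correlations of 0.914 to 0.951. These points share 3 libraries, and the summits of Raf share a gene. The summits had also passed the IDR step across the same replicates, so some likeness of order was built in. The median distance between a replicate's own summit and the reproducible summit was 11 bp, and the largest was 94 bp. No distance could exceed the 100 bp allowed for a match.

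The highest summit of each gene fell in the order Raf, aos, spi, drk, Ras85D, Egfr, rho. The replicate values of Raf lay above all those of aos, the values of aos and spi overlapped, those of spi lay above drk, those of drk above Ras85D and those of Ras85D above Egfr. Egfr and rho overlapped. The summits of Raf, aos, spi, drk and Ras85D were above the level of a typical reproducible peak in every replicate.

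**Figure D1:**
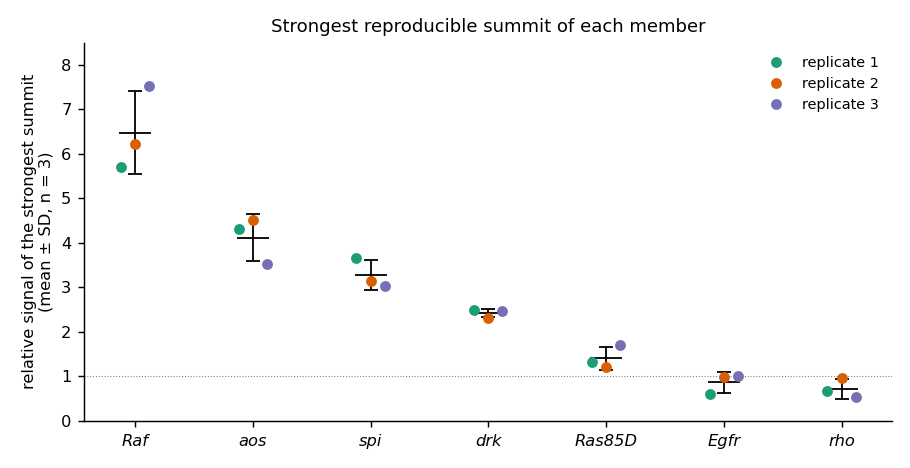
Relative signal (1 = median of reproducible peaks, dotted line) at the highest reproducible summit of each of the 7 genes that had a reproducible summit, with 1 point for each replicate and bars for the mean ± SD (n = 3). Raf stands highest with a mean of 6.48, and Egfr and rho lie near or below 1.

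The ligand gene spi (FBgn0005672, chr2L:19567900-19577315, minus strand) had 3 reproducible summits and 3 annotated start sites. The highest summit, at 2L 19575797, lay 210 bp upstream of the middle start site, in an intron of the longest transcript. Its relative signal was 3.66, 3.14 and 3.03 in replicates 1, 2 and 3 (mean 3.28 ± 0.337, SD, n = 3). It was above 3 in every replicate. By its mean it ranked 192 among the 3597 reproducible peaks that all 3 replicates held. A second summit at 2L 19576008, farther upstream of the same start site, had 0.912, 1.27 and 1.07 (1.08 ± 0.181, n = 3). In the pooled list its relative signal was lower, 0.703, and its peak overlapped that of the highest summit. The third, at 2L 19572987, lay 377 bp upstream of the innermost start site. It had 0.814 and 0.693 in replicates 1 and 2. Replicate 3 had no peak within 100 bp, and its nearest peak, at 2L 19573146, had 0.742. Neither the second nor the third summit reached the lowest value of the first summit in any replicate.

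The protease gene rho (FBgn0004635, chr3L:1463811-1468944, plus strand) had 1 reproducible summit at 3L 1463846, in its 5′ UTR and 35 bp downstream of its start site. The relative signal was 0.664, 0.961 and 0.533 (0.719 ± 0.219, n = 3). All replicates were below the median reproducible peak, and the highest replicate was replicate 2. The gene lies inside the span of Ptp61F, a protein tyrosine phosphatase gene, so the summit falls within both genes.

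The inhibitor gene aos (FBgn0004569, chr3L:16470386-16483650, minus strand), known as a target of the pathway that it inhibits, had 2 reproducible summits. The higher one, at 3L 16480559, lay in the intron 3091 bp downstream of the start site, with a relative signal of 4.32, 4.51 and 3.53 (4.12 ± 0.519, n = 3). This was the highest member summit outside Raf and ranked 123 of the 3597 reproducible peaks that all 3 replicates held. In each replicate it was above the highest summit of spi, although the ranges of the 2 genes overlapped. The other summit, at 3L 16484068 and 418 bp upstream of the start site, had 0.651, 0.847 and 0.258 (0.585 ± 0.300, n = 3). The gene lies inside the span of CG33158.

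The sequences around the highest spi and aos summits are shown because both summits were strong in all replicates and yet held few of the motifs searched. Each is the summit base with 50 bases on each side, read 5′ to 3′ on the forward strand of the RefSeq Release 6 genome, which has the dm6 coordinates. Capitals mark TATAAA on the reverse strand, written here as TTTATA, which starts 17 bp right of the aos summit. Both windows were AT-rich, with 28.7% G and C, against a median of 34.7% over all reproducible summits.
spi chr2L:19575747-19575847: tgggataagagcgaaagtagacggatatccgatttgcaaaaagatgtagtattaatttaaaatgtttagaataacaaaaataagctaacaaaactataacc
aos chr3L:16480509-16480609: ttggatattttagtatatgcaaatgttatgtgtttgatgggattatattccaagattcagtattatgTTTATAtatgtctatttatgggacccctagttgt

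The receptor gene Egfr (FBgn0003731, chr2R:21522420-21559977, plus strand) had 2 reproducible summits, both in its long first intron and weak. At 2R 21527500, 5080 bp downstream of the first start site, the relative signal was 0.600, 0.988 and 1.01 (0.866 ± 0.231, n = 3), and in replicates 1 and 3 the replicate's own summit lay 94 and 87 bp to the left. At 2R 21535585 it was 0.853, 0.423 and 0.828 (0.701 ± 0.242, n = 3). The low replicate was replicate 1 at the first summit and replicate 2 at the second. Egfr is 37.558 kb long. Its window held 16 pooled relaxed summits against 24 at Raf, and 2 reproducible ones against 14. The pooled list had a summit 108 bp upstream of the first Egfr start site and another 200 bp upstream of the second, and neither was reproducible.

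The adaptor gene drk (FBgn0004638, chr2R:13495222-13502841, minus strand) had 1 reproducible summit at 2R 13499751, in an intron 2542 bp downstream of its nearest start site. The relative signal was 2.49, 2.32 and 2.46 (2.42 ± 0.0923, n = 3), the smallest spread among the highest summits of the 7 genes. It lay 870 bp upstream of a start site of the neighbouring gene mars. A pooled summit 153 bp upstream of a drk start site, at 2R 13502446, was the member summit just outside the reproducible set.

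**Figure D2:**
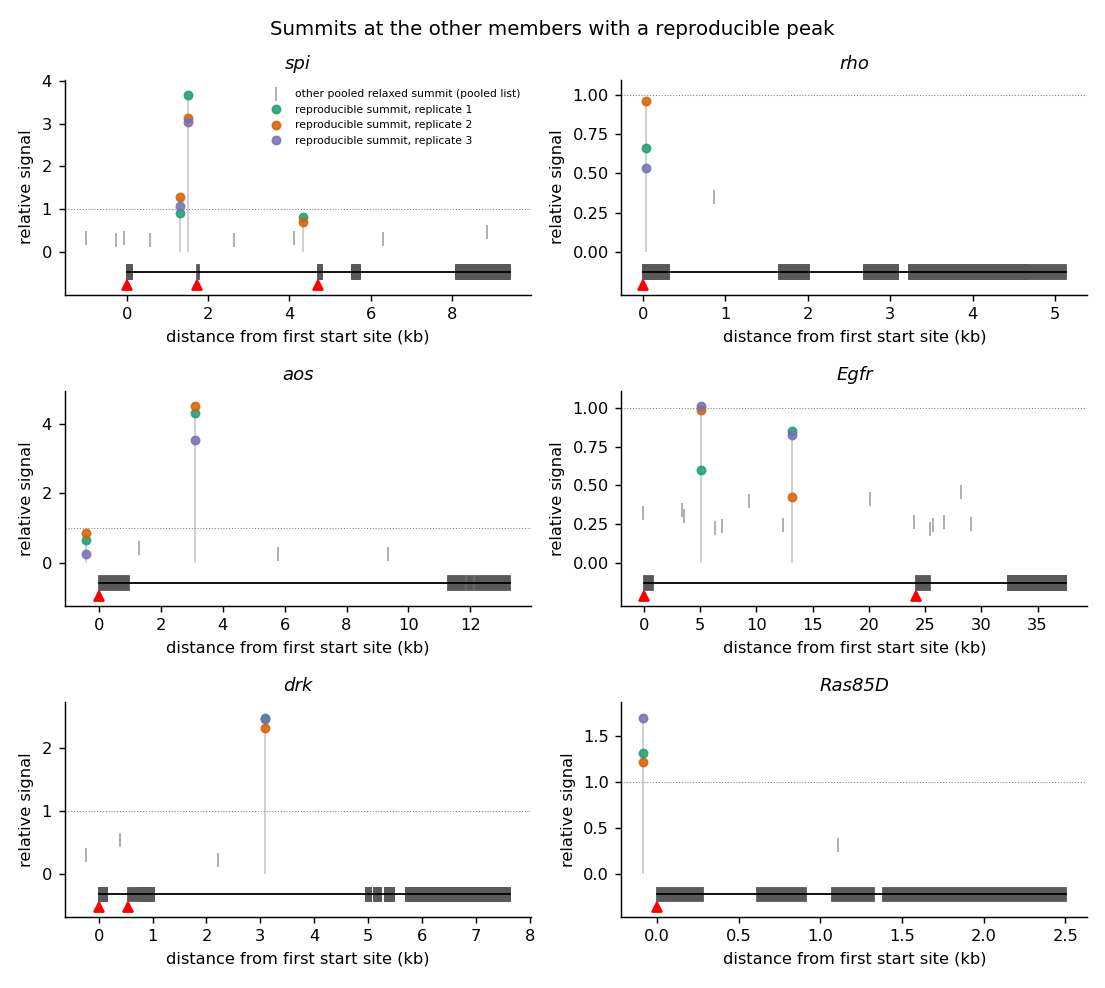
Relative signal of the reproducible summits in each replicate (points) against distance from the first start site in kb, for the 6 genes other than Raf with a reproducible summit; ticks are other pooled relaxed summits, boxes are exons, triangles are start sites and the dotted line is 1. The high summits of aos and drk lie inside introns, that of spi lies between its first and second start sites, and the single summits of rho and Ras85D lie close to the start site.

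The exchange factor gene Sos (FBgn0001965, chr2L:13813816-13819824, plus strand) had no reproducible summit. The pooled list held 2 summits there, the higher with a relative signal of 0.373. Each replicate had weak peaks in the coding exons, the highest being 0.362 in replicates 1 and 2 and 0.399 in replicate 3. All lay below 1, that is, below the typical reproducible peak.

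The GTPase gene Ras85D (FBgn0003205, chr3R:9510561-9513067, minus strand) had 1 reproducible summit, at 3R 9513155. It lay 88 bp upstream of the Ras85D start site and 172 bp upstream of that of Rlb1, a gene that faces the other way with its start site 260 bp away. The relative signal was 1.32, 1.21 and 1.70 (1.41 ± 0.257, n = 3), ranking 1041 of the 3597 peaks that all 3 replicates held. Replicate 3 was highest, and all replicates were above 1. The peak covers both start sites, so it cannot be assigned to either gene.

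The 259 bases between the start sites of Ras85D and Rlb1 are shown because this is the member summit shared by 2 promoters. They are from the forward strand of the RefSeq Release 6 genome, which runs from Ras85D to Rlb1. The first run of capitals marks TATCGATA, the DNA replication-related element (DRE), 74 bp left of the summit, and the second marks GAGAG, the GAGA element, on the reverse strand (CTCTC), 28 bp right of it. The DRE lies farther than the 50 bp from the summit within which motifs were counted.
Ras85D-Rlb1 chr3R:9513068-9513326: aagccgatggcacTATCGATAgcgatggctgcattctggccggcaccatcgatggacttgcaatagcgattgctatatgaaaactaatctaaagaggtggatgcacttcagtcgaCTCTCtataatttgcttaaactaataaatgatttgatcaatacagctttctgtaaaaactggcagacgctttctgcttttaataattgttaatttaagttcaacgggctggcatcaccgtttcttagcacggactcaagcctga

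Raf (FBgn0003079, chrX:2295466-2343870, plus strand) encodes the kinase that links Ras to the MAP kinase cascade. It is 48.405 kb long, with a first start site at X 2295466 and a second at X 2340298, close to the coding exons. The 14 reproducible summits spanned 35.761 kb. Of these, 2 lay upstream of the gene, 1 in the 5′ UTR, at X 2296308, and 11 in the 43.637 kb intron that separates the first start site from the coding exons. The first 11 kb after the start held 8 of the 14. Neighbouring summits were 201 to 11100 bp apart, with a median of 1570 bp. None was within 500 bp of a Raf start site.

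The highest Raf summit, at X 2297725 and 2259 bp downstream of the first start site, had a relative signal of 5.70, 6.22 and 7.53 (6.48 ± 0.941, n = 3). It was the highest of the Raf summits in every replicate and ranked 50 of the 3597 peaks that all 3 replicates held. The next were at X 2300705, with 3.68, 3.01 and 3.31 (3.33 ± 0.333), and at X 2296308, with 3.34, 3.08 and 3.44 (3.29 ± 0.184). These 3 summits were the top 3 of the gene in each replicate, and the ranges of the last 2 overlapped. The fourth, at X 2304073, had 2.95, 2.82 and 2.86 (2.87 ± 0.0660), the narrowest spread among the Raf summits above 1.

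Farther along the intron, the summit at X 2329517, 34051 bp from the first start site, had 2.05, 1.67 and 2.61 (2.11 ± 0.472, n = 3). It was the highest of the 4 summits beyond 20 kb and lay 642 bp upstream of the start site of lncRNA:CR33218, a gene within Raf. Upstream of the gene, the summit at X 2293756 had 1.54, 1.94 and 2.13 (1.87 ± 0.299) and lay 345 bp upstream of the start site of the neighbouring gene CG2865. The other 8 summits had means of 0.739 to 1.78 where all replicates held them. Replicate 1 had no peak within 100 bp of 2 of them, at X 2296509 and X 2317564. The pooled peak of X 2296509 (2296294 to 2296723) overlapped that of X 2296308 (2296201 to 2296314). Between these 2 summits replicate 1 had a single peak, at X 2296386 with 3.34, which was matched to X 2296308. The summit at X 2296509 may therefore not be a separate site. In all, 9 of the 14 Raf summits had a mean over the 3 replicates above 1, out of 14 such summits over the 10 genes.

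Other genes lie within the Raf intron, among them Ilp6, which encodes an insulin-like peptide, and lncRNA:CR34052. The Raf summit at X 2322110 lay 154 bp downstream of the lncRNA:CR34052 start site, with a relative signal of 0.878, 0.660 and 1.29 (0.943 ± 0.321, n = 3). It was near the typical reproducible peak and 1 replicate was above it. No pooled summit lay at the second Raf start site or in the coding exons. Weak peaks were listed there in single replicates, with 0.215 at X 2340628 in replicate 2, and 0.278 at X 2340261 and 0.419 at X 2342738 in replicate 3.

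**Figure D3:**
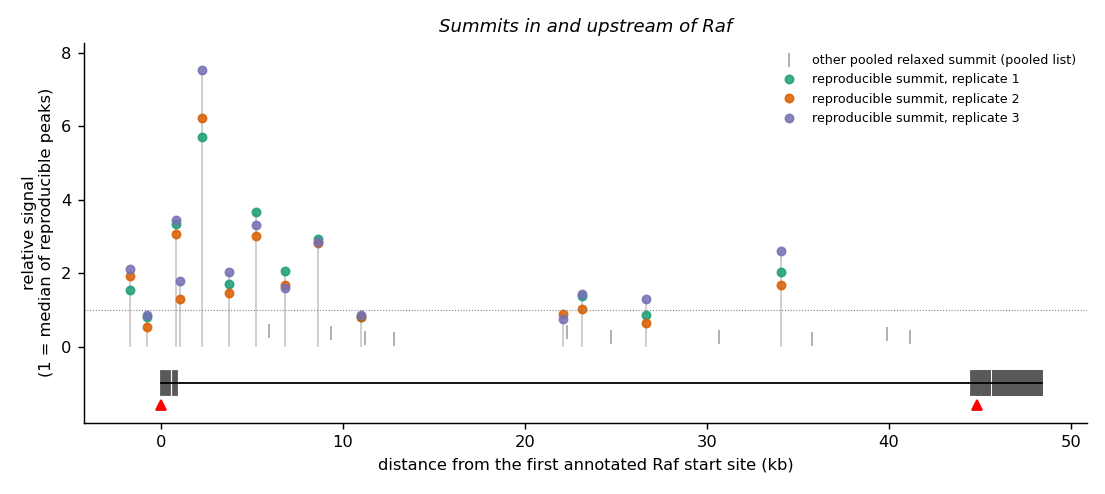
Relative signal of the 14 reproducible summits of Raf in each replicate (points) against distance from the first start site in kb; ticks are other pooled relaxed summits, boxes are exons, triangles are start sites and the dotted line is 1. The highest summits lie in the first 11 kb, and the stretch with the second start site and the coding exons holds none.

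A set of 3 Raf windows is shown because these hold 3 of the 4 highest summits of the gene, all in the same intron, and are unlike each other in the motifs searched. Each is the summit base with 50 bases on each side, from the forward strand of the RefSeq Release 6 genome. In the first, capitals mark GAGAG on the reverse strand (CTCTC), starting 32 bp left and 22 bp right of the summit. In the second they mark CTATTTAA on the reverse strand (TTAAATAG), an 8-letter run described further on. The third held no motif of those searched and is all in lower case.
Raf chrX:2297675-2297775: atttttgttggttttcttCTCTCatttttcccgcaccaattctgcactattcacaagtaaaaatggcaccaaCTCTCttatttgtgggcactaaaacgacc
Raf chrX:2300655-2300755: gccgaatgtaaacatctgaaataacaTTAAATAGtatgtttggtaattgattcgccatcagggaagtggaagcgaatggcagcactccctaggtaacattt
Raf chrX:2304023-2304123: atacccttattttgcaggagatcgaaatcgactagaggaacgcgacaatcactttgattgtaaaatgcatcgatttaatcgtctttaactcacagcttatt

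The number of summits at Raf was set against other long coding genes. Among the 1013 coding genes of 20 kb or more the median was 1 reproducible summit, the upper quartile was 2 and the maximum was 16. Only CG1677 and kirre with 16 each, and ush with 14, had as many as Raf. Per 10 kb of window Raf had 2.78 summits, against a median of 0.122, and 2 of the 1013 genes were denser, CHES-1-like with 3.44 and aop with 2.88. Gene aop encodes the repressor Yan, which the Raf cascade acts on. On the X chromosome alone, with 198 such genes, the median was 1 summit and 0.156 per 10 kb. The other members of 20 kb or more were Egfr with 2 summits, or 0.506 per 10 kb, and rl with none. Raf was selected with its summits known, so nothing is read from its high place among these genes.

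**Figure D4:**
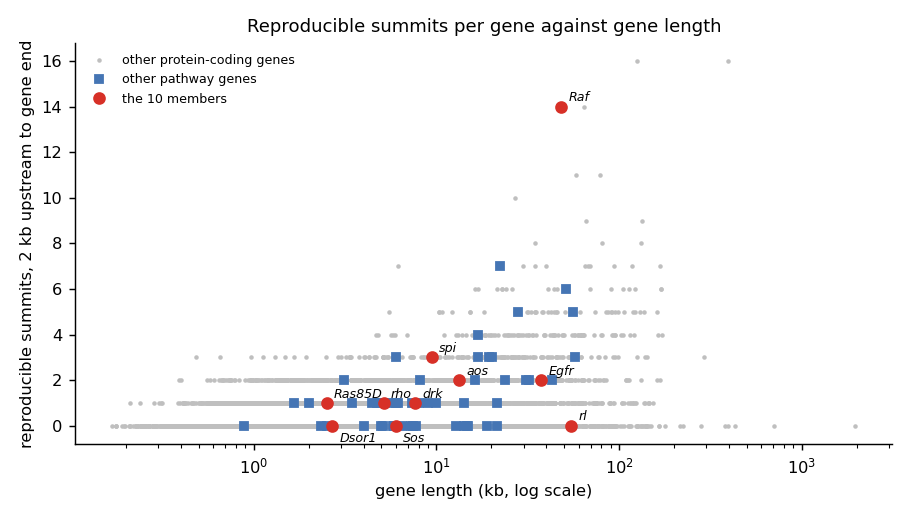
Reproducible summits per coding gene, from 2 kb upstream to the gene end, against gene length in kb (log scale), with the 10 members in red, the other pathway genes in blue and all other coding genes in grey. Raf stands at 14, and of the other members spi has the most with 3.

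The kinase genes below Raf had no reproducible summit. Dsor1 (FBgn0010269, chrX:9247342-9250037, plus strand) held 5 pooled relaxed summits, the highest with a relative signal of 0.361. Its highest peak in each replicate had 0.394, 0.459 and 0.521. These lay close together in replicates 1 and 2 and elsewhere in the gene in replicate 3. The MAP kinase gene rl (FBgn0003256, chr2R:1071462-1125927, plus strand), which lies in the heterochromatin of its chromosome arm, is 54.466 kb long and held no pooled summit. Each replicate list had 1 peak there, with 0.352, 0.174 and 0.247, and the 3 peaks lay at different positions. Thus the longest of the 10 genes held the fewest peaks of the pooled list.

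The windows of the 10 genes also held 47 pooled summits outside the reproducible set, with a relative signal of 0.216 to 0.545 in the pooled list. All 3 replicates held 7 of these and 2 replicates held 26. The reproducible set ended at a pooled signal of 108.6. The member summit just inside this limit was aos 16484068 with a pooled signal of 109.1, and those just outside were drk 13502446 with 95.7, Egfr 21550587 with 80.0 and spi 19568448 with 78.8.

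Of 50 other genes of the pathway and of related receptor tyrosine kinases, 32 had a reproducible summit, against 25.3% of coding genes. Of the 50, 17 had one within 500 bp of an own start site, against 17.1%. By length, the 32 genes with a summit were 6 of 11 below 5 kb, 15 of 27 from 5 to 20 kb and 11 of 12 from 20 kb on. The shares of all coding genes in these classes were 19.2%, 39.8% and 52.6%. This list too was chosen with earlier results of these data known, so nothing is read from the differences. All 8 nuclear effectors had a summit: pnt, aop, edl, cic, gro, ebi, ttk and phyl, with 26 summits among them. Of these pnt encodes the ETS activator of the pathway, and aop and cic encode repressors that the MAP kinase inactivates. Of 14 adaptors, scaffolds and regulators of Ras, 10 had a summit: Shc, dos, cnk, ksr, RasGAP1, Sur-8, 14-3-3zeta, 14-3-3epsilon, PDZ-GEF and Rap1. The summit of dos lay 30 bp upstream of RpL8, a ribosomal protein gene, and that of ksr lay 24 bp upstream of CG31550. That of 14-3-3zeta lay 24 bp upstream of RpLP0-like, and that of ebi also lay 182 bp upstream of AP-2alpha.

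Among 7 genes for ligands and their processing, vn, Krn, S, ru and stet had a summit, and grk and rho-4 had none. Of 4 MAP kinase phosphatase genes, Mkp3, Mkp and puc had one. Of 4 feedback and extracellular inhibitors, sty, which encodes Sprouty, and lbk had one. Of 13 other receptor tyrosine kinases and their ligands, 4 had one, tsl, stumps, bnl and ths. None of these 4 is a receptor. The gene stumps encodes an adaptor of the FGF receptors, bnl and ths encode FGF ligands, and tsl acts in the Torso pathway. Over all coding genes the share with a summit was 25.3%, and nothing is read from the counts of these groups.

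The highest summit among these other genes was that of Shc, which encodes an adaptor of receptor tyrosine kinases. It had a relative signal of 8.12, 5.65 and 8.89 (7.55 ± 1.69, n = 3), a range that overlapped with that of the highest Raf summit, and lay between the start sites of Shc and Atat. RasGAP1, a negative regulator of Ras, had 4.05, 4.47 and 3.58 (4.03 ± 0.445). The scaffold gene cnk had 4.21, 4.00 and 3.30 (3.84 ± 0.481), and its summit was closer to the start site of l(2)k01209. Both overlapped with the highest summit of aos.

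The corepressor gene gro had 3.65, 3.43 and 3.55 (3.54 ± 0.108, n = 3) near its start site. In aop, which held 7 summits, the highest had 2.87, 2.77 and 3.67 (3.10 ± 0.495). S, which encodes the chaperone Star that carries Spitz out of the endoplasmic reticulum, held 5 summits, the highest with 3.31, 3.17 and 2.16 (2.88 ± 0.629). The replicate values of all 3 genes overlapped with those of spi. The values of ebi were 3.03, 2.27 and 3.03 (2.78 ± 0.437), and those of edl were 2.37, 2.55 and 2.23 (2.39 ± 0.163). Both overlapped with the values of drk.

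**Figure D5:**
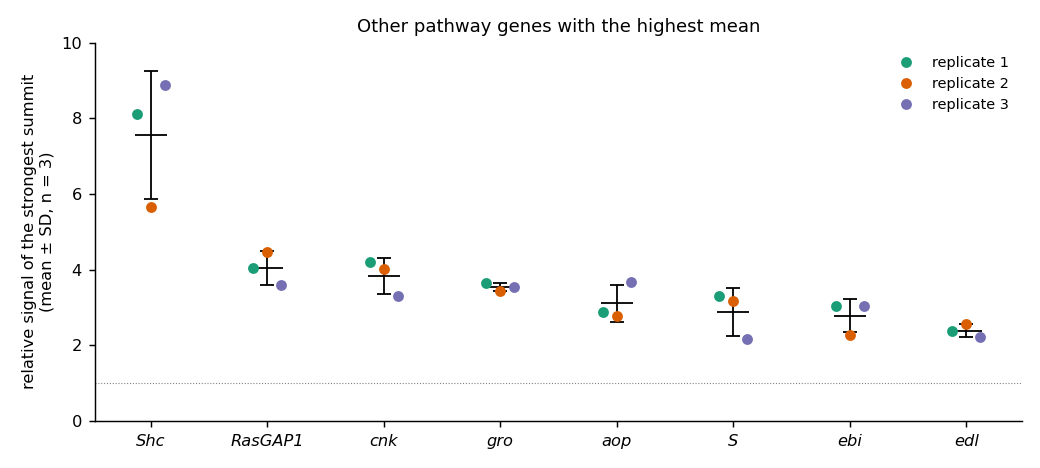
Relative signal (1 = median of reproducible peaks, dotted line) at the highest summit of the 8 other pathway genes with the highest mean, with 1 point for each replicate and bars for the mean ± SD (n = 3). Shc has the highest mean, 7.55, and the largest spread.

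Genes most like Raf in the signal of their highest summit were ranked by the Euclidean distance between log2 relative signals over the 3 replicates. The closest were Rtnl1 at 0.17, CG5098 and CG5757, which share a summit, at 0.20, otp at 0.22 and CG15717 at 0.23. MFS10 shares the summit of CG15717. The summit of Rtnl1 had 6.24, 6.73 and 7.46, beside 5.70, 6.22 and 7.53 at Raf. With only 3 replicates of 1 group, this likeness is one of level.

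Motifs were searched on both strands within 50 bp of the 24 member summits. The GAGA element, GAGAG, was in 7 windows, 5 of them at Raf and the others at Ras85D and aos, and in 11.2% of all reproducible summits and 13.2% of pooled summits over 1000 bp from any reproducible one. TATAAA was in 4 windows, at Raf, aos, drk and spi, against 17.5% and 10.3%. The Zelda site CAGGTAG was in 1 window, at Raf, against 0.506% and 0.733%. The Capicua site TGAATGAA, named for the repressor that the MAP kinase inactivates, was also in 1 Raf window, against 0.860% and 0.688%. No member window held the DRE TATCGATA, the BEAF core (CGATA), which is part of the DRE, motif 1 (GGTCACAC), the E-box (CACGTG), the ETS core (CCGGAA), the GATA site (AGATAA) or the STAT site (TTCNNNGAA). The shares of these over all reproducible summits were 2.25%, 17.0%, 0.860%, 1.04%, 2.15%, 7.36% and 2.88%.

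The 5 runs of 8 letters most frequent at reproducible summits outside the member windows, relative to the other pooled summits, were also looked for. CTATTTAA was in 2 member windows, both in the Raf intron, at X 2300705 and X 2306464, against 1.54% of all reproducible summits and 0.487% of the other pooled ones. The windows of the members held none of the other 4, which were AACTATCG, CAACACTG, AACTATTA and AAAGCTAT. The content of G and C over the 24 windows had a median of 39.6%, from 27.7% to 54.5%, against 34.7% over all reproducible summits and 44.6% over the other pooled ones. The lowest values were 27.7% at the Raf summit X 2293756 and 28.7% at the highest summits of aos and spi.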

How the data were processed

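Peaks of CG16863-eGFP were read from the 3 relaxed replicate lists, the pooled relaxed list and the IDR set on dm6. For depth, aligner, peak caller and IDR settings, nothing is stated in the labels or files. Per the deposited notes, each replicate list derives from the replicate's alignment and 1 further, undescribed file. Replicates are numbered as the labels number them. The peak height is a signal value deposited by the authors, and the deposited −log10 q value served only as an alternative limit. The dm3 lists were not used. No column of another sample was present (0 unused).

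Summits, 1-based, were placed with Ensembl release 115 (BDGP6.54), transposable elements left out, in Python 3.11.15 with numpy 2.4.6 and pandas 2.3.3. Each replicate's signals were divided by its median at the reproducible peaks (55.2, 70.0 and 54.0), which assumes that typical peaks are alike. Counting was tested on simulated peaks. Members and gene lists were chosen with earlier results of these data known. All 10 members are named, other pathway genes by symbol when they had a reproducible summit, with values for the 8 highest means, and the 5 genes most like Raf. Alternatives changed the window, match distance, limit, scaling and replicates.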

Additional observations from a re-analysis of the deposited data

How the results depend on the processing

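With only summits within 500 bp of an own start site counted, 4 members, 6 member summits and 17 of the other pathway genes remained. At a pooled signal at or above the median of the IDR set, 14 member summits remained, 10 of them at Raf, and Egfr and rho had none. Division by the median of all peaks of a list, in place of the reproducible ones, changed the scale and not the order: the highest summit was 21.0 at Raf, 13.4 at aos, 10.6 at spi, 7.82 at drk, 4.53 at Ras85D, 2.85 at Egfr and 2.38 at rho. When each replicate was left out in turn, the IDR step was not repeated. The 3953 strongest peaks of each remaining replicate were taken, and those of 1 with a summit within 100 bp in the other were kept. This gave 2805, 2766 and 2854 peaks without replicates 1, 2 and 3, and 6 members had a summit each time. These lists are shorter than the IDR set, so the effects of the rule and of the replicate cannot be told apart. Without replicate 1 or 2 rho had none, and without replicate 3 Egfr had none, while Raf held 11 to 13. With windows from 500 bp upstream Raf held 12, and a pooled q value of at most 0.01 gave the same 7 members. Windows from 5 kb upstream gave 8 members, 26 member summits and 33 of the other pathway genes. No paired analysis was possible because there is 1 group. No value could be had at a match distance of 50 bp for Egfr and rho. At that distance all 3 replicates held 16 of the 24 member summits. They held 17 at 100 bp when the replicate peaks needed a q value of at most 0.01. Depth is unknown, so a summit missing from a list was not detected at that depth, not shown to be absent.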

Other observations

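Within 150 bp of the summits, a distance chosen after the data were seen, TGAATGAA, a binding site of Capicua, was in 4 of the 24 member windows, against 2.30% of all reproducible summits and 2.45% of the other pooled ones. In Raf these were the windows of X 2296509 and X 2297725, the latter the highest summit of the gene. In aos both windows held a pair of overlapping sites. In the same windows GAGAG was in 15 of 24, against 35.9% and 33.9%. The Capicua and GAGA sites were taken from the 11 motifs and 5 runs of 8 letters searched at this width. Among the others, CTATTTAA was in 2 windows (3.36% and 1.76%) and TATAAA in 7 (39.8% and 27.6%). CGATA was in 5 (39.6% and 32.1%) and AGATAA in 1 (18.7% and 14.5%). These counts are a description, and nothing is read from them.

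Runs of 8 letters found in the most member windows were also looked for after the data were seen. The most frequent were in 3 of the 24 windows of 50 bp to each side of the summit: ACAAGTAA, against 0.708% of all reproducible summits and 0.285% of the other pooled ones, ATGCAAAT, against 1.75% and 1.65%, and CAAATCGC, against 0.304% and 0.436%. ACAAGTAA and CAAATCGC were in windows of Raf only, and ATGCAAAT was in windows of Raf and aos, so none was shared by more than 2 of the genes. Since they were picked for their counts, these are a description.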
